A study of Rattus norvegicus with 20 samples.

Results

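Central myelin protein genes encode the structural proteins of the sheath that oligodendrocytes wrap around axons in the brain and spinal cord. The 9 genes described here are Mbp, Mog, Mag, Mobp, Cnp, Cldn11, Mal, Ermn and Opalin, which were found by symbol among the 30443 genes of the expression table, each with a single entry. RNA was sequenced from 5 regions of 4 rats, which makes 20 libraries. The animals were adult wild-type females of the outbred strain Long-Evans, about 6 to 8 months old. All 4 had a hemicontusion of the spinal cord at cervical level 4 with a displacement of 0.7 mm, and all 4 received an electrode array in the motor cortex opposite the injury 2 weeks later. In the 2 stimulated animals the cortex was stimulated for 1 week, at 10 Hz for 5 hours a day in cycles of 5 minutes on and 2 minutes off, with a current of 80% of the movement threshold. The 2 controls were injured, implanted and connected without current, so no animal was uninjured or without an implant. Region 1 was a block of about 5 mm3 of white matter below the implant, and region 2 was its counterpart in the other hemisphere. Region 3 was cord rostral to the lesion, region 4 was cord at the lesion and region 5 was cord caudal to it, each with gray and white matter. The sample labels and the study text place region 5 at slightly different cervical levels.

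Compact myelin is made of membrane layers held together by proteins of the cytoplasmic and the outer faces, while uncompacted channels, the innermost layer facing the axon and the outermost layer keep proteins of their own. Most of these genes are switched on late in oligodendrocyte differentiation under the transcription factors Sox10 and Myrf. Schwann cells, which myelinate peripheral axons and can enter an injured cord, make some of the same proteins, including myelin basic protein.

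Levels are FPKM, a fragment count scaled to the length of the transcript and to the size of the library, as the authors deposited them. All 9 genes were above 8 FPKM in all 20 libraries, so every member passed the filter of at least 1 FPKM in any library, together with 15210 of the 30443 genes. FPKM values keep no read numbers, so the depth behind a value is unknown and errors rest on the spread between libraries. The median library value of the genes that passed was 2.23 to 2.69 on the log2 scale, and 12497 to 13546 genes of a library reached 1 FPKM. The white matter blocks were not free of cortical neurons: Slc17a7, the vesicular glutamate transporter of cortical excitatory neurons, stood at 225 to 329 FPKM in regions 1 and 2, against 0.318 to 11.8 in the cord. The region 2 block of stimulated animal 2 stood apart in its phagocyte markers, which summed to 1121 FPKM over 10 genes against 126 to 163 in the other 3 region 2 libraries. The region 1 block of stimulated animal 1 stood apart in its markers of striatal neurons, which summed to 119 FPKM over 6 genes against 29.0 to 41.2 in the other 7 white matter libraries. In tissue blocks, fewer oligodendrocytes and less RNA per oligodendrocyte cannot be told apart.

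The promoters of 4 members are shown because Mobp and Mag were among the members much lower in white matter than in cord, while Mal and Opalin differed least, as described below. These 4 were chosen after the values had been seen. Promoter sequences were those of RefSeq on assembly GRCr8, which held 7 of the 9 members. Mog and Ermn were not matched. Each is the 250 bases before the annotated start, read 5′ to 3′ on the strand of the gene. Capitals mark CTGGNAC, the letters to which Myrf binds, and ACAAAG or ACAATG, letters bound by Sox proteins, on either strand, so that CTTTGT and CATTGT are the Sox letters on the opposite strand.
Mobp, chr8:128746982-128747231, plus strand: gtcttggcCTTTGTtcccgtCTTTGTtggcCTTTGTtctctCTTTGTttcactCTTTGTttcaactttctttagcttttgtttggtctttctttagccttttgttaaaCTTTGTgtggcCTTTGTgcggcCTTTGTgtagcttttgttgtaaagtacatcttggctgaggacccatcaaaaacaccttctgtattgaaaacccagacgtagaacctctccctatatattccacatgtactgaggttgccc
Mag, chr1:95291045-95291294, minus strand: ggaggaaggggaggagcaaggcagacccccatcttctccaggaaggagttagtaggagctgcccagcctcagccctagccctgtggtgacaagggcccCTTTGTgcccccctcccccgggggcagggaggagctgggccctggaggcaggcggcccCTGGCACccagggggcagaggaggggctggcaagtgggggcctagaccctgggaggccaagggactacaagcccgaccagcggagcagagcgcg
Mal, chr3:135341424-135341673, minus strand: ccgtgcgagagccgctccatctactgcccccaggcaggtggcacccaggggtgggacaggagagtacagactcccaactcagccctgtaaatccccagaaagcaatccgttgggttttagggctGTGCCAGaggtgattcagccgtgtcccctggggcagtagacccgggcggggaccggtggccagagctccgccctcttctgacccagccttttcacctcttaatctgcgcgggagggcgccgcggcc
Opalin, chr1:249858191-249858440, minus strand: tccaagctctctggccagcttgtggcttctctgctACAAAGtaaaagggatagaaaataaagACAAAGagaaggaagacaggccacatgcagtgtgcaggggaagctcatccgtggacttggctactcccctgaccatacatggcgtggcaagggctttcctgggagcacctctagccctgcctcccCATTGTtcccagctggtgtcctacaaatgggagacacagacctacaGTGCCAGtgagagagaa

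The window before Mobp held ACAAAG 8 times and no CTGGNAC. Mag held each of these once, Mal held CTGGNAC once and neither Sox motif, and Opalin held CTGGNAC once, ACAAAG 2 times and ACAATG once. Over the 8 promoters of the 7 matched members, since Mbp has several starts, CTGGNAC was found in 6, ACAAAG in 5 and ACAATG in 2. Over all 33465 rat promoters of the same length the shares were 14.8%, 16.3% and 11.1%. Of the other letters searched, GGGCGG was found in 5 member promoters and in 30.5% of all, CCAAT in 1 and in 34.0% of all, and TATAAA in 0 and in 12.9% of all. In the promoters other than those of Mbp, 0 matches overlapped another. A match describes letters, not a bound site.

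Mbp (ENSRNOG00000016516) encodes myelin basic protein, which joins the cytoplasmic faces of compact myelin. Its means were 979.7 ± 346, 556 ± 127, 4414 ± 451, 4363 ± 297 and 5184 ± 631 FPKM for regions 1 to 5 (SD, n = 4 animals in each). Mbp was the most abundant gene of the whole table in 10 of the 12 cord libraries and was second in the other 2, while 2 to 15 genes were above it in a white matter library. Mobp (ENSRNOG00000018700), a small basic protein of compact myelin, averaged 84.0 ± 38.6, 50.3 ± 10.1, 340 ± 33.6, 299 ± 26.2 and 334 ± 31.8 FPKM in regions 1 to 5. Mal (ENSRNOG00000015445), a proteolipid of lipid-rich membrane domains, averaged 62.3 ± 29.9, 37.9 ± 7.98, 117 ± 12.2, 114 ± 14.3 and 118 ± 10.2 FPKM.

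Cldn11 (ENSRNOG00000010263), the claudin of the tight junctions between myelin layers, averaged 123 ± 25.0, 50.4 ± 28.4, 238 ± 23.3, 284 ± 37.9 and 301 ± 23.1 FPKM in regions 1 to 5. Cnp (ENSRNOG00000017496), an enzyme of the uncompacted channels, averaged 134 ± 22.0, 67.5 ± 25.9, 311 ± 13.1, 330 ± 17.3 and 365 ± 37.6 FPKM. These were the next most abundant members after Mbp in white matter. Mag (ENSRNOG00000021023), an adhesion protein of the layer next to the axon, averaged 60.8 ± 10.8, 29.2 ± 10.5, 175 ± 19.1, 192 ± 14.7 and 215 ± 31.1 FPKM. Mog (ENSRNOG00000000775), a surface protein of the outermost layer, averaged 32.5 ± 9.69, 18.2 ± 4.19, 108 ± 5.27, 99.6 ± 5.43 and 111 ± 9.82 FPKM. Ermn (ENSRNOG00000021472), an actin-binding protein of late oligodendrocytes, averaged 25.6 ± 10.5, 16.4 ± 3.12, 141 ± 12.7, 140 ± 8.09 and 164 ± 19.2 FPKM. Opalin (ENSRNOG00000022386), a membrane glycoprotein of oligodendrocytes, averaged 18.6 ± 7.33, 10.2 ± 1.76, 31.7 ± 5.21, 32.7 ± 5.30 and 30.1 ± 3.49 FPKM. Opalin was the lowest member in all 5 regions.

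**Figure D1:**
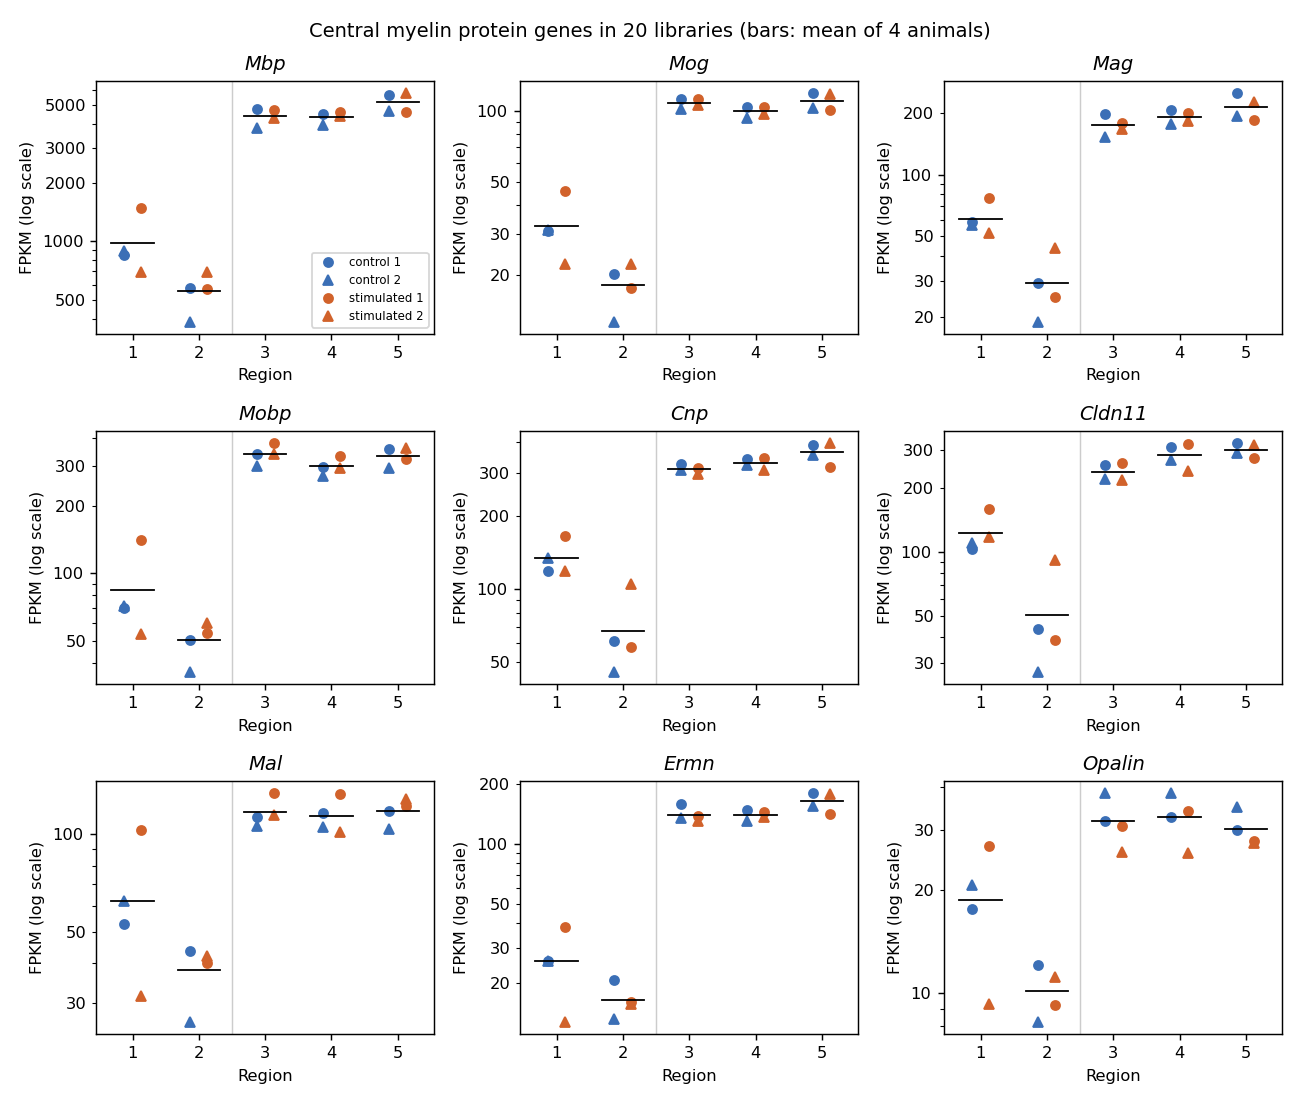
FPKM of the 9 members, on a log axis, by region, with a point for each library (circle and triangle, animals 1 and 2 of a group) and a bar for the mean of 4 animals. The cord libraries of regions 3 to 5 lie together, between 3836 and 5813 FPKM for Mbp, above the white matter libraries of regions 1 and 2, which reach 1484.

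The order of the levels differed between the tissues. In region 1 it was Mbp, Cnp, Cldn11, Mobp, Mal, Mag, Mog, Ermn and Opalin. Between these neighbours the ranges over 4 animals were separate only from Mbp to Cnp and from Mag to Mog, yet within a library each stood above the next in 4 of 4 animals, apart from Mal over Mag in 2 of 4. In region 2 the order was the same, with Cldn11 above Mobp in 1 of 4 libraries, Mal above Mag in 3 and Mog above Ermn in 2, so these neighbours were not told apart. In region 3 Mobp came second, above Cnp in 3 of 4 libraries, and Ermn stood above Mal and Mog in 4 of 4. In regions 4 and 5 Cnp was second, ahead of Mobp in 4 and 3 of 4 libraries. Mbp made up 62.5 to 68.7% of the summed FPKM of the 9 members in white matter and 73.7 to 76.8% in cord, and these ranges did not overlap. The 9 members together took 0.299 to 0.938% of the FPKM sum of a white matter library and 2.09 to 2.66% of that of a cord library.

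White matter was compared with cord to ask how far the members differed between these tissues of the same animals. Differences are given as the mean log2 FPKM of the first group minus that of the second. All 9 members were lower in white matter, by 2.36-fold for Opalin to 7.54-fold for Ermn. Mbp was lowest at 385, with a median of 695 and a highest value of 1484 FPKM, in the 8 white matter libraries, and ran from 3836 through a median of 4609 to 5813 in the 12 cord libraries. The highest white matter library was region 1 of stimulated animal 1, and it stayed below the lowest cord library. This is the block that stood apart in its striatal markers, whose part in the members' values was not tested. Without this library, a fit added after seeing the data, all 9 members were called lower, Mbp by −2.80, Mal by −1.47 and Opalin by −1.34 on the log2 scale. The log2 difference of Mbp was −2.69 (SE 0.13), which is 6.46-fold lower, with a limma adjusted p of 1.20e-12. Here and in the other comparisons of regions, the fit takes the 20 libraries as independent. Its SEs and p-values thus count blocks of 4 animals, and regions 1 and 2 of an animal deviated together (r 0.413 to 0.768). Quantile normalization, which gives the most abundant genes of all libraries like values, brought it to −1.55.

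Ermn ran from 12.6 through 18.3 to 38.3 FPKM in white matter and from 130 through 143 to 181 in cord. The gap between these ranges was wide, and the log2 fold change was −2.91 (SE 0.14, limma adjusted p 9.10e-13). Opalin ran from 8.22 through 11.6 to 27.0 FPKM in white matter and from 25.7 through 31.3 to 38.4 in cord. Here the groups overlapped, through region 1 of stimulated animal 1, and the log2 fold change was −1.24 (SE 0.15, limma adjusted p 4.65e-07). Mal ran from 26.2 through 42.8 to 103 FPKM in white matter and from 101 through 116 to 134 in cord, overlapping through the same library, and its log2 fold change was −1.33 (SE 0.15, limma adjusted p 3.01e-07). Without that library the highest white matter values were 62.0 FPKM for Mal and 20.7 for Opalin, below the cord. Mal and Opalin were the members that differed least.

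The other 5 members did not overlap between the tissues. Mobp ran from 36.3 through 57.2 to 141 FPKM in white matter and from 270.3 through 328 to 382 in cord, a log2 difference of −2.37. Mag ran from 18.9 through 47.6 to 76.5 FPKM in white matter and from 153 through 190 to 253 in cord, a log2 difference of −2.23. Mog ran from 12.7 through 22.4 to 45.8 FPKM in white matter and from 93.1 through 104 to 120.0 in cord, a log2 difference of −2.16. Cldn11 and Cnp, at 27.3 to 159 and 45.6 to 166 FPKM in white matter and 217 to 325 and 295 to 399 in cord, had log2 fold changes of −1.87 and −1.85. Counted over members, 9 of 9 were called lower, against 47.1% of all 15210 genes, and 7 of 9 were lower without overlap, against 16.8% of all genes. Over the members the median log2 difference was −2.16, and over all genes −0.18. With quantile normalization 39.6% of all genes were called lower and 33.2% higher, in place of 47.1% and 25.0%, and 9 of 9 members were still lower. The 5 cortical neuron markers, all called higher in white matter, summed to 364 to 594 FPKM there and to 5.60 to 24.9 in the cord. They mark neurons of the cortex and do not measure those of the cord. The 7 general neuron genes overlapped, with sums of 1032 to 1799 FPKM in white matter and 922 to 1620 in cord. The part of neurons in the lower share of myelin RNA was not tested. Without the filter on low values Mbp was no longer called (8 of 9 members, adjusted p of Mbp 0.31).

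**Figure D2:**
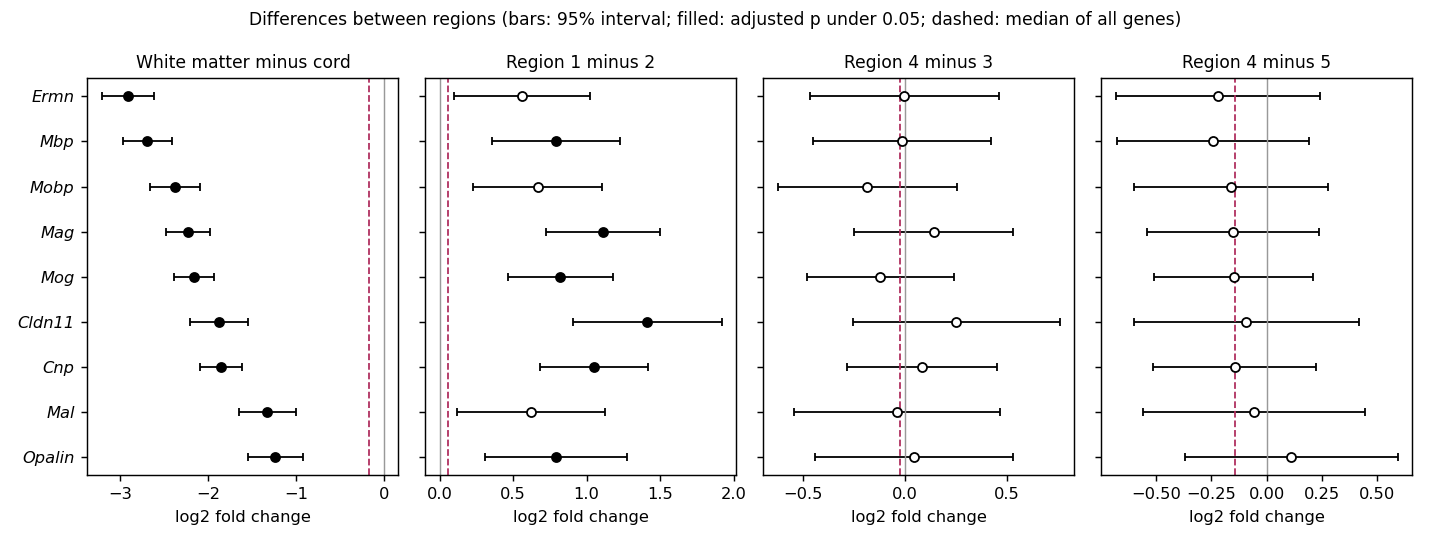
Log2 fold change of each member in 4 comparisons of regions, with 95% intervals from limma, filled points for an adjusted p under 0.05 and a dashed line at the median of all genes (the horizontal scales differ). All 9 members lie left of the dashed line in white matter against cord, from −2.91 for Ermn to −1.24 for Opalin, and none is filled in the 2 cord comparisons.

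Since FPKM is a share of a library, ratios of members within a library were compared as well, which do not change with the scaling of a library. Of the 36 pairs of members, 31 differed in ratio between white matter and cord (two-sided exact permutation of regions within animals, 10000 arrangements, Benjamini-Hochberg over the 36 pairs). The permutation treats the 5 blocks of an animal as exchangeable, so its p-values count blocks of 4 animals. With 1 tissue difference per animal, a two-sided exact test cannot go below p = 0.125. The 36 pairs share 9 genes, and no share over pairs of other genes was computed. Over all 15210 genes, 10977 were called between these tissues by limma. The ratio of Ermn to Opalin was 1.37 ± 0.0977 in region 1 and 1.61 ± 0.150 in region 2, against 4.52 ± 0.718, 4.39 ± 0.805 and 5.52 ± 0.929 in regions 3 to 5 (SD, n = 4 animals). The tissues did not overlap, and the ratio was 3.19-fold lower in white matter (exact permutation p 0.0001, the smallest these arrangements allow, adjusted 0.000189). The ratio of Mbp to Mal was 16.7 ± 3.62 and 14.7 ± 1.34 in regions 1 and 2 and 37.8 ± 3.25, 38.5 ± 3.58 and 43.9 ± 4.31 in regions 3 to 5, which was 2.57-fold lower in white matter (exact permutation p 0.0001, adjusted 0.000189).

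On average, Ermn was lower in white matter relative to each of the other 8 members. Its ratios to Mbp, Mobp and Cldn11 overlapped between the tissues. Mal and Opalin were on average higher relative to each of the 7 members other than each other. Their ratios to Mbp, Mog, Mobp and Ermn did not overlap, while those to Mag, Cnp and Cldn11 did. The log2 ratio of Cldn11 to Mal ran from −0.04 to 1.89 over white matter libraries, which enclosed the cord range of 0.92 to 1.48. The white matter ranges of Cldn11 to Opalin and Cnp to Mal likewise enclosed those of the cord. The ratio of Mal to Opalin itself was 3.30 ± 0.393, 3.72 ± 0.470, 3.78 ± 0.795, 3.54 ± 0.565 and 3.99 ± 0.743 in regions 1 to 5, and the tissues differed by −0.09 on the log2 scale (exact permutation p 0.1415, adjusted 0.154). The other pairs that did not pass were Cnp with Cldn11, Mog with Mag, Mog with Cldn11 and Mag with Mobp. Among the genes whose promoters are printed above, the ratio of Mobp to Mal was 2.06-fold lower and that of Mag to Mal 1.87-fold lower in white matter (exact permutation, adjusted p 0.000189 and 0.000327). The ratio of Mobp to Cldn11 also varied within each tissue, at 0.666 ± 0.174 in region 1 and 1.13 ± 0.335 in region 2, and at 1.43 ± 0.106, 1.06 ± 0.123 and 1.11 ± 0.0685 in regions 3 to 5.

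**Figure D3:**
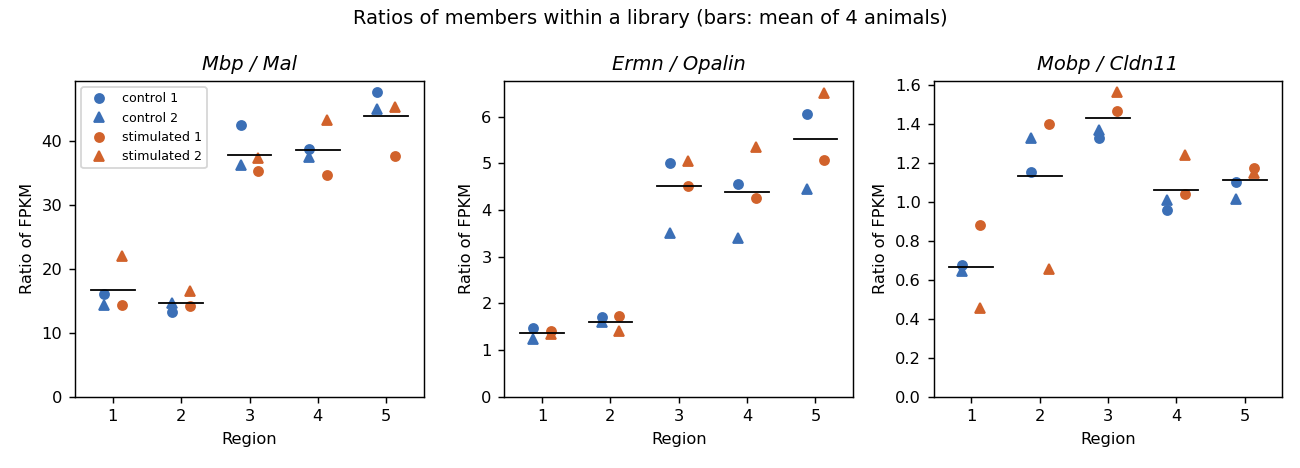
Ratio of the FPKM values of a pair of members within each library, by region, with a point for each library and a bar for the mean of 4 animals. Mbp over Mal and Ermn over Opalin separate white matter from cord (Ermn over Opalin 1.24 to 1.74 against 3.40 to 6.5), while Mobp over Cldn11 overlaps and is lower in region 4 than in region 3.

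Regions 1 and 2 were compared to ask whether white matter below the implant differed from its counterpart in the other hemisphere. All 9 members were on average higher in region 1, and 6 were called. Cldn11 stood in region 1 at 104 and 111 FPKM in controls 1 and 2 and at 159 and 117 in stimulated animals 1 and 2, and in region 2 at 43.8, 27.3, 38.8 and 91.8. Region 1 lay above region 2 without overlap, though region 2 of stimulated animal 2 was close. The log2 difference of Cldn11 was 1.41 (SE 0.24, limma adjusted p 0.00300). Mag stood at 58.5, 56.7, 76.5 and 51.7 FPKM in region 1 and at 29.4, 18.9, 25.0 and 43.6 in region 2, in the same order of animals, a log2 difference of 1.11 (SE 0.19, limma adjusted p 0.00290). Cnp stood at 119, 134, 166 and 119 FPKM in region 1 and at 61.4, 45.6, 58.0 and 105 in region 2, a log2 difference of 1.05 (SE 0.18, limma adjusted p 0.00290). In both genes, too, region 2 of stimulated animal 2 was the highest of region 2 and lay just below region 1.

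Mbp stood at 847, 891, 1484 and 697 FPKM in region 1 and at 578, 385, 568 and 692 in region 2, a log2 difference of 0.79 (SE 0.21, limma adjusted p 0.0259). In stimulated animal 2 the 2 regions were alike, 0.01 apart on the log2 scale, while the other animals differed by 0.55, 1.21 and 1.39. Mog followed the same course, with differences of 0.60, 1.30, 1.38 and 0.005 in controls 1 and 2 and stimulated animals 1 and 2, and a log2 difference of 0.82 (SE 0.17, limma adjusted p 0.00831). Opalin stood at 17.6, 20.7, 27.0 and 9.33 FPKM in region 1 and at 12.1, 8.22, 9.24 and 11.1 in region 2, a log2 difference of 0.79 (SE 0.23, limma adjusted p 0.0412). Opalin was lower in region 1 than in region 2 in stimulated animal 2, so it was higher in 3 of 4 animals only.

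The 3 members not past the threshold were also higher in 3 of 4 animals and lower in stimulated animal 2. Ermn stood at 25.8, 25.6, 38.3 and 12.6 FPKM in region 1 and at 20.6, 13.2, 16.04 and 15.6 in region 2, a log2 difference of 0.56 (limma adjusted p 0.120). Mobp and Mal had log2 fold changes of 0.67 and 0.62 (limma adjusted p 0.0550 and 0.113). Counted over members, 6 of 9 were called higher, against 6.86% of all genes, and 5 were higher without overlap, against 4.4% of all genes. Over the members the median log2 difference was 0.79, and over all genes 0.06. With quantile normalization 6.20% of all genes were called higher and 5.53% lower, in place of 6.86% and 1.76%, and 7 of 9 members were higher.

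These 6 calls depended on the spread being estimated over all 5 regions and on control 1, control 2 and stimulated animal 1. The count was 1 without control 1 or control 2, 0 without stimulated animal 1 and 9 without stimulated animal 2. Without only the region 1 library of stimulated animal 1, which stood apart in its striatal markers, 4 members were called, Mog, Mag, Cnp and Cldn11, with Mbp at 0.57 (limma adjusted p 0.0807) and Opalin at 0.58 (limma adjusted p 0.132), and 648 of all genes were called in place of 1310. A fit of regions 1 and 2 alone called 0 members and 0 of all genes, and with the animal as a block it called 0 members (adjusted p 0.0538 for Cldn11) and 1322 genes. The animal as a replicate block in the model of all regions added Mobp (7 members, limma adjusted p 0.0307). Within region 1, phagocyte markers summed to 293 to 368 FPKM in the controls and to 608 and 942 in stimulated animals 1 and 2, and markers of fibroblasts to 27.2 to 46.1 in the first 3 animals and 146 in stimulated animal 2. In region 2 they summed to 126 to 163 and 6.23 to 8.70 in the first 3 animals and to 1121 and 42.8 in stimulated animal 2. In region 1 against region 2, 4 of 10 phagocyte genes and 4 of 4 fibroblast genes were called higher, while of 7 general neuron genes 0 were called higher and 1 lower. Their part in the differences of the members was not tested.

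Within the cord, the lesion was compared with the segments rostral and caudal to it. No member was called between any 2 cord regions in the model of all regions. That model takes its spread from the white matter libraries as well and does not pair libraries by animal. The animal as a replicate block in it called no member here either. For region 4 against region 3, 0 of 9 were called, against 19.6% of all genes, and the log2 fold changes ran from −0.18 for Mobp to 0.25 for Cldn11. The 95% interval was −0.62 to 0.26 for Mobp, −0.48 to 0.24 for Mog, −0.45 to 0.42 for Mbp and −0.26 to 0.76 for Cldn11. Changes of 2-fold lie outside all of these.

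The small differences ran the same way in every animal for some members. How many of all genes did so was not computed. Mog stood at 113, 102, 113 and 106 FPKM in region 3 of controls 1 and 2 and stimulated animals 1 and 2, and at 104, 93.1, 104 and 97.2 in region 4. It was lower at the lesion by 0.11 to 0.13 on the log2 scale in 4 of 4 animals, although the groups overlapped. Mobp stood at 339, 299, 382 and 339 FPKM in region 3 and at 296, 270.3, 334 and 295 in region 4, also lower in 4 of 4. Cldn11 stood at 255, 219, 260.2 and 217 FPKM in region 3 and at 309, 268, 321 and 238 in region 4, which was higher in 4 of 4 animals, and Mag and Cnp were likewise higher in 4 of 4. The mean within-animal differences on the log2 scale were −0.12 for Mog (SD 0.0095) and −0.18 for Mobp (SD 0.024). They were 0.25 for Cldn11 (SD 0.077), 0.14 for Mag (SD 0.060) and 0.084 for Cnp (SD 0.036). The intervals given above do not use this pairing. With 4 animals a two-sided exact test of the signs within animals cannot go below p = 0.125, and it uses no magnitudes. Mbp and Ermn were higher in 2 animals and lower in the other 2.

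For region 4 against region 5, 0 of 9 members were called, against 7.99% of all genes. The log2 fold changes ran from −0.24 for Mbp (95% interval −0.68 to 0.19) to 0.11 for Opalin (95% interval −0.37 to 0.60), with a median of −0.15, against −0.14 over all genes. For region 5 against region 3, 0 of 9 were called, against 4.32% of all genes, and the log2 fold changes ran from −0.07 for Opalin to 0.34 for Cldn11. Cldn11 stood at 325, 290.4, 274 and 315 FPKM in region 5, all above region 3. It was the only member without overlap, which 20.5% of all genes showed in that direction. The limma adjusted p of Cldn11 was 0.379 in the model of all regions and 0.0386 in a fit of regions 3 and 5 alone. Within animals, Mag, Cnp, Cldn11 and Ermn were each higher in region 5 than in region 3 in 4 of 4, by 0.29, 0.23, 0.34 and 0.22 on average on the log2 scale. The share of all genes higher in 4 of 4 was not computed. Region 5 was also higher in general: its libraries had a mean median log2 FPKM of 2.60, against 2.47 in region 3. Only 5.02% of all genes were lower there without overlap.

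Other cell types did differ between these cord regions. The Schwann cell markers summed to 59.2 to 124 FPKM in region 3, 146 to 208 in region 4 and 172 to 397 in region 5, and 6 of 9 were called higher in region 4 than in region 3. Phagocyte markers summed to 337 to 534 FPKM in region 3 and 817 to 1854 in region 4, with 6 of 10 called higher, and 5 of 7 general neuron genes were called lower. Their part in the members' values was not tested.

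Stimulated and control animals were compared within each region to ask whether a week of cortical stimulation changed these genes. No member was called in any region, and by limma 0 members had an unadjusted p under 0.05 in any region. In region 1, 0 of 9 were called, against 0.0% of all genes, of which 5.44% had an unadjusted p under 0.05. For 7 members the 2 stimulated animals lay on opposite sides of the controls. The exceptions were Cldn11, above both controls in both, and Cnp, which in stimulated animal 2 lay between the controls. Mbp stood at 847 and 891 FPKM in the controls and at 1484 and 697 in the stimulated animals, and Mal at 52.7 and 62.0 and at 103 and 31.7. The controls lay close together and the stimulated animals far apart for most members. Striatal neuron markers summed to 40.6 and 39.0 FPKM in the controls and to 119 and 29.0 in stimulated animals 1 and 2, and general neuron markers to 1500.3 and 1511 and to 1403 and 1032, and their part in this split was not tested. The log2 fold changes ran from −0.27 for Opalin (95% interval −1.88 to 1.34) to 0.35 for Cldn11 (95% interval −0.21 to 0.92). Cldn11 was the only member without overlap in region 1, and 21.2% of all genes were higher without overlap there. Without stimulated animal 1, Ermn was called lower (log2 difference −1.03, limma adjusted p 0.0468), a fit that assumes the lone stimulated library to vary like the controls.

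In region 2, 0 of 9 members were called, against 0.0% of all genes, and 1.41% of all genes had an unadjusted p under 0.05. The log2 fold changes ran from −0.06 for Ermn to 0.79 for Cldn11 (95% interval −0.78 to 2.36). Mobp stood at 50.4 and 36.3 FPKM in the controls and at 54.3 and 60.1 in the stimulated animals, the only member without overlap, as 20.2% of all genes were in that direction. Mbp, Mog, Mag, Mobp, Cnp and Cldn11 were highest in stimulated animal 2, whose phagocyte markers stood apart as given above, and their part was not tested.

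In region 3, 0 of 9 were called, against 0.0% of all genes (3.43% with an unadjusted p under 0.05), and the log2 fold changes ran from −0.31 for Opalin (95% interval −0.74 to 0.12) to 0.18 for Mal (95% interval −0.16 to 0.53). Opalin stood at 31.8 and 38.4 FPKM in the controls and at 30.8 and 25.8 in the stimulated animals, lower without overlap, as were 24.7% of all genes. Mal stood at 113 and 106 FPKM in the controls and at 134 and 115 in the stimulated animals, higher without overlap, as were 5.14% of all genes. In region 5, with 0 of 9 called against 0.0197% of all genes (3.59% with an unadjusted p under 0.05), the same members were without overlap in the same directions. Opalin stood there at 30.0 and 35.05 FPKM in the controls and at 27.8 and 27.5 in the stimulated animals, with a log2 difference of −0.23 (95% interval −0.53 to 0.07). Mal stood at 118 and 104 and at 122 and 128, with a log2 difference of 0.17 (95% interval −0.15 to 0.50). The shares of all genes without overlap in region 5 were 18.5% higher and 6.07% lower. These regions come from the same animals and are not independent.

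In region 4, 0 of 9 were called, against 0.0% of all genes (2.24% with an unadjusted p under 0.05), and 0 members were without overlap, against 20.2% of all genes, with log2 fold changes from −0.26 for Opalin to 0.15 for Mobp. Mbp is the most abundant gene of the cord, and the trend of variance with level gave it a wide error within a region: its log2 fold changes were 0.07, 0.09 and 0.01 in regions 3 to 5, with SEs of 1.94, 1.60 and 1.14. Without the trend the SEs were 0.15, 0.14 and 0.18. With 2 animals against 2 a two-sided exact permutation test of a single gene cannot go below p = 0.333. The effect of stimulation in region 1 minus that in region 2 was not called for any member (0 of 9, against 0.0% of all genes) and ran from −0.43 for Cldn11 (95% interval −2.19 to 1.32) to −0.12 for Mobp. The effect in region 4 minus that in region 3 was not called for any member either (0 of 9, against 0.0% of all genes), from −0.11 for Mal to 0.14 for Ermn (95% interval −0.25 to 0.53).

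**Figure D4:**
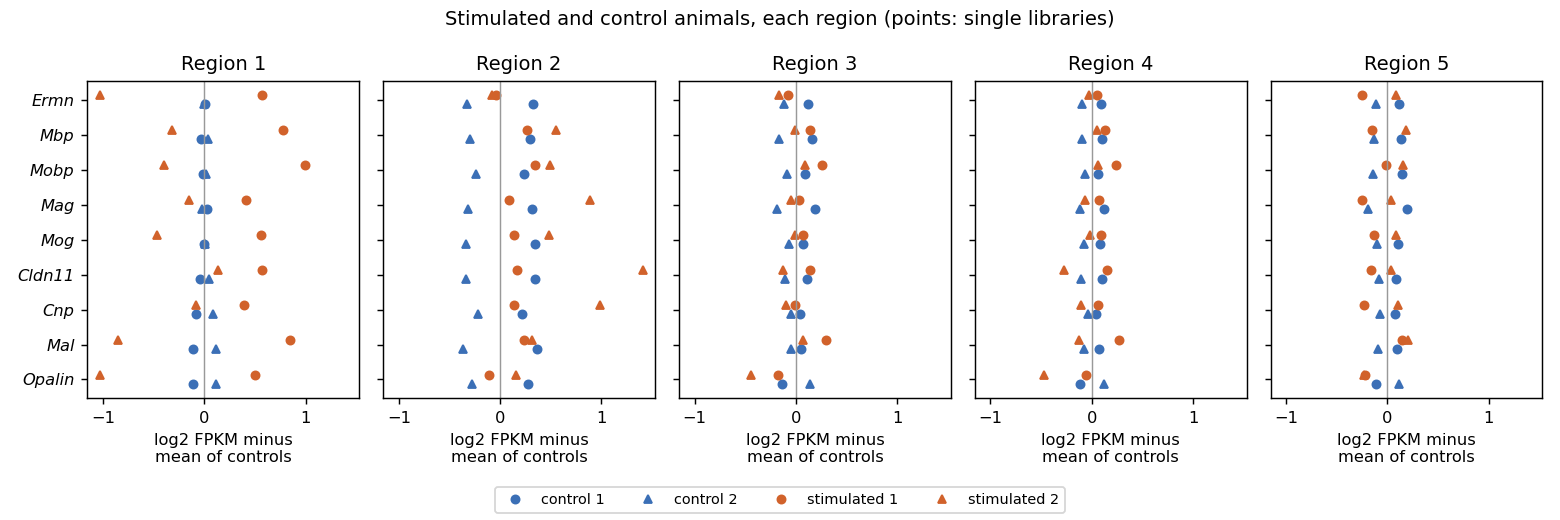
Log2 FPKM of each member minus the mean of the 2 controls of that region, with a point for each library (blue controls, orange stimulated, circle and triangle for animals 1 and 2). In region 1 the stimulated animals lie on opposite sides of the controls for most members, and in regions 3 to 5 all points lie within about 0.5 of the controls.

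Other genes of the oligodendrocyte were described from lists. Of 31 further genes of mature oligodendrocytes that passed the filter, 28 were called lower in white matter than in cord and 0 higher, with a median log2 fold change of −2.21. Among all genes 47.1% were called lower. The largest differences of this list were those of the protease Klk6 (−3.64), the transporter Slc45a3 (−3.48) and the cytoskeletal protein Anln (−3.27). Among the abundant genes of the list, Ptgds, a prostaglandin synthase, and Tf, transferrin, had log2 fold changes of −2.21 and −2.94.

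All 9 genes of a list for the synthesis of myelin lipids, 8 of them for sphingolipids and Aspa, aspartoacylase, which is also among the 31 mature genes, were called lower in white matter, with a median of −1.87. They were led by Fa2h (−2.82), Ugt8 (−2.77) and Elovl7 (−2.62), which hydroxylate fatty acids, make galactosylceramide and lengthen fatty acids. All 10 lineage transcription factors were lower, with a median of −1.47, among them Nkx6-2 (−2.17), Myrf (−1.76), Sox10 (−1.68) and Olig1 (−1.18). Of 7 genes for glial gap junctions and the paranode, 6 were lower, with Gjb1 at −3.27, and 1 was higher, Cntnap1 at 0.83. Of 8 progenitor genes 7 were lower, with a median of −0.58, and Sox6 was not past the threshold (−0.07). Of 11 genes of newly forming oligodendrocytes 8 were lower, Enpp6 most (−2.71), and 3 were higher, of which Cyfip2 (1.52) is also expressed in neurons. Beside these counts, 10977 of all 15210 genes were called, 7169 of them lower and the others higher.

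In region 1 against region 2, 14 of the 31 mature oligodendrocyte genes were called higher and 0 lower, with Klk6 at 1.78 and Adamts4 at 1.42. The counts were 7 of 10 for the transcription factors, 6 of 9 for lipid genes, 4 of 7 for glial junctions, 5 of 8 for progenitors and 5 of 11 for newly forming oligodendrocytes, with 0 lower in each. Among all genes 6.86% were called higher. These counts rest on the same model and animals as those of the members. In region 4 against region 3, 1 of the 31 mature genes was called higher, Il33 (0.57), and 2 lower, Car2 and Efnb3 (both −0.69). There, 0 of 9 lipid genes, 1 of 10 transcription factors, Tcf7l2 (0.67), and 1 of 8 progenitor genes, Cspg4 (0.71), were called, all of those higher, and 1 of 7 junction genes was lower, Cntnap1 (−0.65). Of 11 newly forming genes 2 were called higher and 1 lower. Among all genes 19.6% were called in region 4 against region 3, in either direction. For stimulation, 0 genes of these lists were called in any region.

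**Figure D5:**
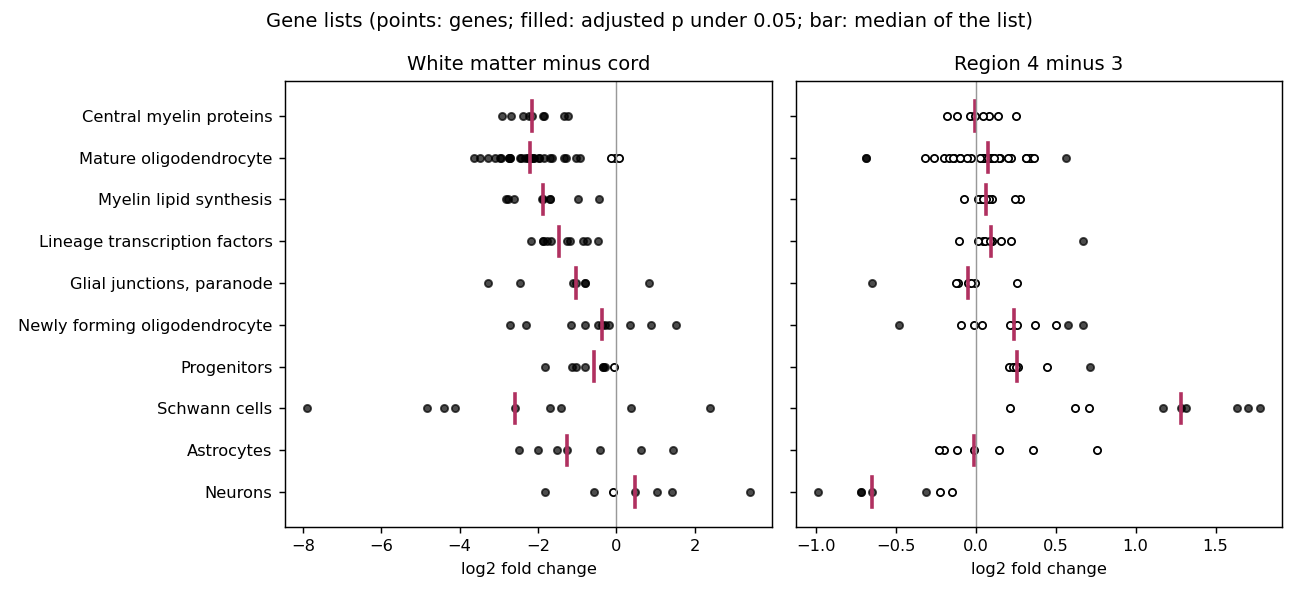
Log2 fold change of the genes of 10 lists, white matter against cord (left) and region 4 against region 3 (right), with a point for each gene, filled for a limma adjusted p under 0.05, and a red bar at the median of the list (the horizontal scales differ). On the left the members and the mature oligodendrocyte list share medians of −2.16 and −2.21, and on the right both medians are near 0 while Schwann cell genes lie to the right.

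The genes most like the members were found by correlating log2 FPKM with the mean of the 9 members over the 8 white matter and over the 12 cord libraries, and ranking 11279 genes by the smaller of the 2 values of Pearson's r. Samd8 led (0.954), a ceramide phosphoethanolamine synthase, followed by the lysophosphatidic acid receptor Lpar1 (0.949) and the heme transporter Slc48a1 (0.943), and the dihydroceramide desaturase Degs1 (0.930) was also among the highest. Libraries of an animal share that animal, so these values are descriptions. Correlated with the mean of the other 8, each member had an r of 0.818 to 0.997 in white matter. In the cord r was 0.754 to 0.886 for Mbp, Mog, Mag, Cnp, Cldn11 and Ermn, 0.498 for Mobp, 0.511 for Mal and −0.246 for Opalin. Opalin was thus the member whose variation among cord libraries was least like that of the others.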

How the data were processed

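Bulk RNA was sequenced from 5 regions of 4 rats, 2 stimulated and 2 control (20 libraries). The authors depleted ribosomal RNA, aligned reads to the rat genome Rnor6 with TopHat2 2.1.0 and deposited FPKM values from Cufflinks 2.2.1 (versions from the submitters' processing notes), with low values already raised to 0.1. Strand use in counting was not given in the sources used here. The table had 0 columns without a sample. Replicates were separate animals, and libraries of 1 animal share its number.

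FPKM values floored at 0.1 were log2-transformed, and genes of at least 1 FPKM in any library were kept (15210 of 30443). limma 3.58.1 in R 4.3.3 (lmFit, eBayes with trend) was fitted to the 20 libraries with a mean per region for comparisons of regions, within each region for stimulation, and on within-animal differences for differences of effects. White matter was the mean of regions 1 and 2 and cord that of regions 3 to 5. P-values were adjusted by Benjamini-Hochberg over all genes tested (threshold 0.05). Pair ratios used exact permutation within animals in Python 3.11.15 with numpy 2.4.6 and pandas 2.3.3. The figures were drawn with matplotlib 3.10.9. Libraries of the same animal deviated together in regions 1 and 2 (r 0.413 to 0.768) and less in the cord (r −0.09 to 0.255), and the animals come from the sample titles. Tested on simulated data of 15210 genes with 200 changed by a log2 fold change of 2, the fits recovered 97% in white matter against cord, 94% in region 1 against region 2 and 67.5 to 78% for stimulation, but 55.5% and 30% for the differences of effects. The simulated noise was independent between libraries and had the same spread in all regions. These shares therefore do not describe libraries of an animal that deviate together, nor changes smaller than the simulated one. False calls were 18 of 212 calls in white matter against cord and 18 of 201 in region 5 against region 3. They were 6 of 194 in region 1 against region 2.

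The members and lists were chosen with earlier results of these data known. Named were all 9 members, from each list the 3 genes of highest mean FPKM and up to 3 with the largest called change, and the 5 genes most like the members, of which some are not reported here. Further list genes were named after their values were seen. Alternatives were other pseudocounts, filters and scalings, no trend, a replicate block, group means, compared regions only, leaving out each animal and leaving out either white matter library that stood apart in its markers. Compared regions with a block, and the fit without the region 1 library of stimulated animal 1, were chosen after seeing the data.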

Additional observations from a re-analysis of the deposited data

How the results depend on the processing

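All 9 members stayed lower in white matter than in cord under the 14 alternatives tried, with Mbp losing its call without a filter on low values. Of the 36 pair ratios, 29 to 32 passed under the alternatives, though not always the same ones. With region 1 alone against cord 32 passed, and only 28 of these were among the 31 reported. The calls between regions 1 and 2 were the least stable: leaving out 1 animal gave 0 to 9 members, and the compared regions alone, with or without the replicate block, gave 0. Other alternatives gave 4 to 7 members (4 without a filter or without the region 1 library of stimulated animal 1, 7 with the replicate block), and no member changed direction. For region 5 against region 3, the compared regions alone gave 1 member, Cldn11, and 0 with the block. For stimulation in region 1, leaving out 1 animal gave 0 to 1 members, Ermn without stimulated animal 1. The replicate block changed no other call of a member.

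Among values with no call, signs changed as follows. Leaving out 1 animal, the effect of stimulation ran from −1.03 to 0.50 for Opalin in region 1 and from −0.38 to 0.27 for Ermn in region 2, and the effect in region 1 minus that in region 2 from −0.89 to 0.65 for Mobp and from −1.27 to 0.41 for Cldn11. For Mobp this last difference was 0.032 with quantile normalization and 0.013 with upper-quartile scaling. Over all comparisons with no call, 127 of 1116 recomputed values changed sign. The causes were not tested.

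Over all genes, the number called ran from 9440 to 12466 in white matter against cord (10977 as reported), 0 to 3587 in region 1 against region 2 (1310), 522 to 4842 in region 4 against region 3 (2984), 0 to 1966 in region 4 against region 5 (1216) and 54 to 3323 in region 5 against region 3 (657). For stimulation it ran to at most 230, 566, 3, 213 and 443 in regions 1 to 5. Quantile normalization moved the median log2 fold change of all genes from −0.18 to −0.04 in white matter against cord, with 39.6% of genes called lower and 33.2% higher in place of 47.1% and 25.0%, and from 0.06 to −0.05 in region 1 against region 2, with 6.20% higher and 5.53% lower in place of 6.86% and 1.76%. Of 45 groups of 4 libraries, 1 for each member and region, 0 held a library that stood apart by Dixon's test. Depth per gene is unknown, and 2 animals a group limit all effects of stimulation.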
